A study of Mus musculus with 10 samples.

Results

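The 9 genes described here, Mbp, Mog, Mag, Mobp, Cnp, Mal, Cldn11, Ermn and Myrf, are the myelin genes of mature oligodendrocytes. They were chosen by name, as the rows of the count table whose Ensembl identifier carries one of these symbols in the GRCm38 annotation, and all 9 were found among the 43629 genes of the table. RNA sequencing was done on the total hippocampus of 10 mice, with 1 library per mouse. The 5 Dp1Tyb mice carry Dp(16Lipi-Zbtb21)1TybEmcf, a duplication on mouse chromosome 16 that leaves its genes in 3 copies and is used as a model of Down syndrome, and the 5 wild-type (WT) mice do not. All 10 are labelled as strain C57BL/6J.129P2 and as 18 weeks old, and the methods of the study describe them as male littermates, backcrossed to C57BL/6JNimr, with a slightly higher age. The duplication is present in every cell of the animal, so a difference between the groups is not tied to any one cell type. Total counts per library ranged from 18227684 to 43692270, and the 9 genes together took between 0.318% and 0.441% of them, with no fewer than 976 reads for any of the 9 genes in any library.

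Oligodendrocytes wrap the axons of the central nervous system in myelin, a stack of membrane layers whose cytoplasmic faces are pressed together. Myelin basic protein (Mbp) holds those faces together, while other proteins line the outer surface, the axon-facing surface or the seams of the sheath. The transcription factor Myrf switches on many myelin genes as an oligodendrocyte matures and works beside Sox10, which is needed throughout the lineage, and Olig2, which is needed for its formation. In the hippocampus myelin is sparse compared with large white matter tracts and lies mainly along afferent and efferent fibre bundles.

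Promoters were read from RefSeq (GRCm38.p6, 250 bases before to 50 after each start) to describe words for MYRF, SOX10 and OLIG2. A link of these words to the levels of the genes was not tested. Promoters of 7 of the 9 genes were searched, 9 promoters in all. Those of Mbp and Myrf were not searched, so the counts of genes with a word leave both out. The words searched on both strands were CTGGCAC and CTGGTAC for MYRF, ACAAAG and ACAATG for SOX10, and CAGCTG and CATCTG for OLIG2, none of which is contained in another. A MYRF word was present for 3 genes, Cnp, Mag and Mog, against 8.1% of the 27025 genes in the table and 7.1% of its 32851 promoters. A SOX10 word was present for 4 genes, Cnp, Ermn, Mag and Mobp, against 31.7% of genes and 28.6% of promoters. An OLIG2 word was present for 0 of the 7, against 33.4% of genes and 30.6% of promoters. The promoter of Mobp, at chr9:120149492-120149791 on the forward strand, held 6 SOX10 words. Those of Cnp, at chr11:100574689-100574988 on the forward strand, and Mag, at chr7:30914814-30915113 on the reverse strand, held 1 word of each of MYRF and SOX10, at -81 and -167 bases from the start in Cnp and at -68 and -126 in Mag. That of Mog, at chr17:37023349-37023648 on the reverse strand, held 1 MYRF word at -83. Matches are descriptions of the letters only, and binding was not measured. The 4 promoters are printed to show where the words lie, each in the direction of its gene, with the matched words in capitals.
Mobp: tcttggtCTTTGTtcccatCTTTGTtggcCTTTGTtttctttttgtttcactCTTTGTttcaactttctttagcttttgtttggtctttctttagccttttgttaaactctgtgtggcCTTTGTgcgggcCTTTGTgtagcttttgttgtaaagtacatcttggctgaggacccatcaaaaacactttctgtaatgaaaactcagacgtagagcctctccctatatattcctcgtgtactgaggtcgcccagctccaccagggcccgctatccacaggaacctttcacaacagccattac
Cnp: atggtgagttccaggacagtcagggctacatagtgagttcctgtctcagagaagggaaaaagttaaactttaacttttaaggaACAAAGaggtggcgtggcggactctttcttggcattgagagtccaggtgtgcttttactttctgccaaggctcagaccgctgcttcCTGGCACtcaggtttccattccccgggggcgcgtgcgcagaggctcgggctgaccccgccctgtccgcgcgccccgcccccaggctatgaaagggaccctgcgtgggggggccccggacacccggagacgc
Mag: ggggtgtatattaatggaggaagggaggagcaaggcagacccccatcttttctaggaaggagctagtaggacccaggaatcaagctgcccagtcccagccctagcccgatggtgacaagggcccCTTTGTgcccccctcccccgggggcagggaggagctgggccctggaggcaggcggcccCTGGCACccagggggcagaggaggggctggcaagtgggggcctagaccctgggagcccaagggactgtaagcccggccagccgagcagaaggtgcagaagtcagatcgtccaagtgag
Mog: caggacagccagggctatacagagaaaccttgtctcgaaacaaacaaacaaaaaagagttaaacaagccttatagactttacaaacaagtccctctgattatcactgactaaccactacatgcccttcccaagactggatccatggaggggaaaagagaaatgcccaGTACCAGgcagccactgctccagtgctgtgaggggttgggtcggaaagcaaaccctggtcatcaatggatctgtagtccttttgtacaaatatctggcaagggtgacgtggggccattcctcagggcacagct

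None of the 9 genes lies in the duplicated region. In GRCm38, Mbp is at chr18:82475146-82585637, Mobp at chr9:120149707-120181484, Cnp at chr11:100574904-100591729 and Cldn11 at chr3:31149920-31164324, all on the forward strand. Mag is at chr7:30899176-30914873, Mog at chr17:37010743-37023398, Mal at chr2:127633226-127656695, Ermn at chr2:58045113-58052864 and Myrf at chr19:10208272-10240748, on the reverse strand. Some exons are shared with neighbouring genes: 154 exon bases of Cnp lie opposite Dnajc7, 237 of Ermn lie opposite Galnt5, and 79 of Mobp are also exonic in Gm38642 on the same strand, so the counts of these 3 genes could hold or lose reads of the neighbour.

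All 9 genes were readily measured in every mouse. Levels of different genes were compared per length, as RPKM (CPM divided by exon length in kilobases, CPM being counts scaled to a common library size), and Mbp was the highest, with 259 ± 22.2 RPKM in WT and 252 ± 28.1 in Dp1Tyb (SD, n = 5). Mobp, a small basic protein of compact myelin, followed with 124 ± 23.4 RPKM in WT and 124 ± 21.2 in Dp1Tyb. Cnp, the cyclic nucleotide phosphodiesterase that keeps cytoplasmic channels open within the sheath, and Mal, a small membrane protein that helps to sort myelin proteins, came next. Cnp stood at 77.6 ± 8.55 RPKM in WT and 80.9 ± 11.7 in Dp1Tyb, and Mal at 76.5 ± 12.1 and 92.4 ± 15.2. Cldn11, the claudin of the tight junctions that seal the sheath, had 54.5 ± 6.59 RPKM in WT and 52.2 ± 8.52 in Dp1Tyb. Mag, the adhesion protein that faces the axon, had 41.7 ± 3.43 and 45.3 ± 5.56 RPKM, and Mog, a glycoprotein of the outermost surface, had 33.3 ± 3.05 and 35.6 ± 4.80. The lowest were Ermn, a protein linked to actin in the late stages of myelination, with 13.8 ± 1.70 RPKM in WT and 13.5 ± 1.30 in Dp1Tyb, and the transcription factor Myrf with 8.66 ± 0.466 and 9.06 ± 0.821.

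Some neighbours in this order could not be separated by their ranges. Cnp and Mal overlapped in both genotypes, as did Mal and Mobp in Dp1Tyb, where Mobp ran from 90.1 to 144 RPKM and Mal from 71.4 to 108. In WT, Mal reached down to 57.2 RPKM and Cldn11 up to 60.9. Cldn11 and Mag overlapped in both genotypes, and Mag and Mog overlapped in Dp1Tyb only, where Mag started at 36.9 and Mog reached 41.0 RPKM. In both genotypes, Mbp lay above every other member in every mouse, Mog above Ermn, and Ermn above Myrf. The length used was that of all annotated exons joined, so a gene with exons that the hippocampus does not use is placed too low.

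**Figure D1:**
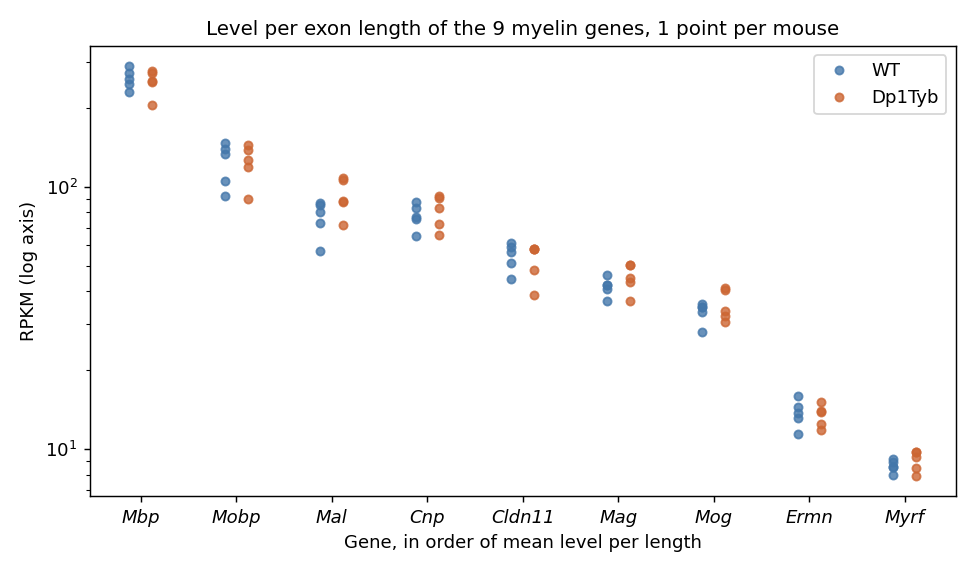
Level per exon length (RPKM, log axis) of the 9 myelin genes, with 1 point per mouse, WT in blue and Dp1Tyb in orange. Mbp lies highest at 259 and 252 RPKM on average and Myrf lowest at 8.66 and 9.06, and within each gene the genotypes overlap.

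None of the 9 myelin genes passed the test for a difference between the genotypes. All 9 were tested among 17237 genes, and 0 of 9 were called with edgeR's quasi-likelihood test at a Benjamini-Hochberg adjusted p under 0.05, where 1.11% of all tested genes were called. The WT and Dp1Tyb ranges overlapped for 9 of 9 genes, and 3.68% of all tested genes had ranges that did not. The log2 fold changes (Dp1Tyb minus WT) ran from -0.07 for Cldn11 to 0.27 for Mal, with a median of 0.06 beside -0.0041 over all tested genes. The median size of the change without regard to sign was 0.063 for the 9 genes and 0.086 over all tested genes. Values were above 0 for 6 genes and below 0 for 3, and of the 6, Mobp at 0.0010 was below 0 when library size alone or RLE factors were used for scaling. In whole tissue, fewer cells of a type and less RNA per cell cannot be told apart, and this holds for every level given here.

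The transcripts of Mbp and Mobp, which encode proteins of compact myelin, were at close to the same average in both groups. Mbp stood, in CPM, at 2293, 2182, 2098, 1943 and 2438 in WT replicates 1 to 5 and at 2153, 2298, 2337, 1736 and 2130 in Dp1Tyb replicates 1 to 5. The lowest mouse of each genotype was replicate 4, and 4 of the 5 Dp1Tyb mice lay within the WT range. The log2 fold change of Mbp was -0.04 ± 0.082 (SE, adjusted p = 0.855), with a 95% interval from -0.22 to 0.14, or 0.861-fold to 1.10-fold. Mobp varied far more, with 1009, 954, 724, 635 and 916 CPM in WT and 871, 987, 948, 617 and 818 CPM in Dp1Tyb. Both replicates 4 were again the lowest, and WT replicate 3 was also low. Its log2 fold change was 0.0010 ± 0.137 (SE, adjusted p = 0.998), and with this spread the interval ran from -0.30 to 0.30.

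Mal had the highest log2 fold change of the 9 genes but did not pass the adjusted threshold. Its levels were 237, 241, 202, 159 and 223 CPM in WT replicates 1 to 5 and 244, 301, 295, 198 and 245 CPM in Dp1Tyb replicates 1 to 5. In Dp1Tyb, 4 of the 5 mice lay above all WT mice, and replicate 4 lay among the lower WT mice. Mean levels were 213 ± 33.7 CPM for WT and 257 ± 42.1 CPM for Dp1Tyb (SD, n = 5). The log2 fold change of Mal was 0.27 ± 0.122 (SE), with a 95% interval from 0.0089 to 0.54. The unadjusted p from edgeR was 0.0437 and the adjusted p 0.333, and 14.4% of all tested genes had an unadjusted p under 0.05 (7.97% in the upward direction). Mal was the 1 gene of 9 with such a p.

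The genes of the adhesion proteins of the sheath surfaces gave small positive values that were within the spread between mice. Mag stood at 173, 167, 172, 150 and 188 CPM in WT and at 178, 204, 205, 150 and 184 CPM in Dp1Tyb. Replicates 2 and 3 of Dp1Tyb were above every WT mouse, while Dp1Tyb replicate 4 lay beside the lowest WT mouse, and the log2 fold change was 0.12 ± 0.080 (SE, adjusted p = 0.528). Mog was at 59.2, 59.2, 60.8, 47.8 and 56.8 CPM in WT and at 57.3, 69.0, 69.9, 52.3 and 55.1 CPM in Dp1Tyb. The same 2 Dp1Tyb mice were above the WT range and the other 3 within it. Its log2 fold change was 0.10 ± 0.089 (SE, adjusted p = 0.636), with an interval from -0.09 to 0.29, and that of Mag ran from -0.06 to 0.29.

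The genes of the cytoplasmic channels, the seals and the cytoskeleton lay on both sides of 0. Cnp was at 275, 279, 301, 237 and 320 CPM in WT and at 264, 336, 332, 238 and 303 CPM in Dp1Tyb, and its log2 fold change was 0.06 ± 0.097 (SE, adjusted p = 0.810). Cldn11 was at 114, 96.0, 106, 83.5 and 110 CPM in WT and at 90.1, 108, 108, 72.8 and 108 CPM in Dp1Tyb, and its log2 fold change was -0.07 ± 0.110 (SE, adjusted p = 0.818). In these genes too, replicate 4 of each genotype was the lowest. Ermn differed from the rest in that its lowest Dp1Tyb mouse was replicate 1: it was at 58.2, 48.0, 52.9, 41.5 and 49.8 CPM in WT and at 43.0, 50.6, 54.9, 45.5 and 51.0 CPM in Dp1Tyb. Its log2 fold change was -0.03 ± 0.087 (SE, adjusted p = 0.892). The 95% intervals were -0.15 to 0.27 for Cnp, -0.30 to 0.17 for Cldn11 and -0.22 to 0.15 for Ermn.

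Myrf, the regulator, was the steadiest of the 9. Its levels were 78.9, 73.6, 73.2, 68.4 and 76.8 CPM in WT and 72.5, 80.2, 83.8, 67.9 and 83.3 CPM in Dp1Tyb. The highest of the 10 mice was 1.23 times the lowest, against 1.89 times for Mal. The log2 fold change of Myrf was 0.06 ± 0.062 (SE, adjusted p = 0.667), and its interval of -0.07 to 0.20 was the narrowest, corresponding to 0.953-fold to 1.15-fold. The intervals of all 9 genes ended below a 1.5-fold increase, the highest upper bound being 1.45-fold for Mal, and the lowest lower bound was 0.810-fold for Cldn11.

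**Figure D2:**
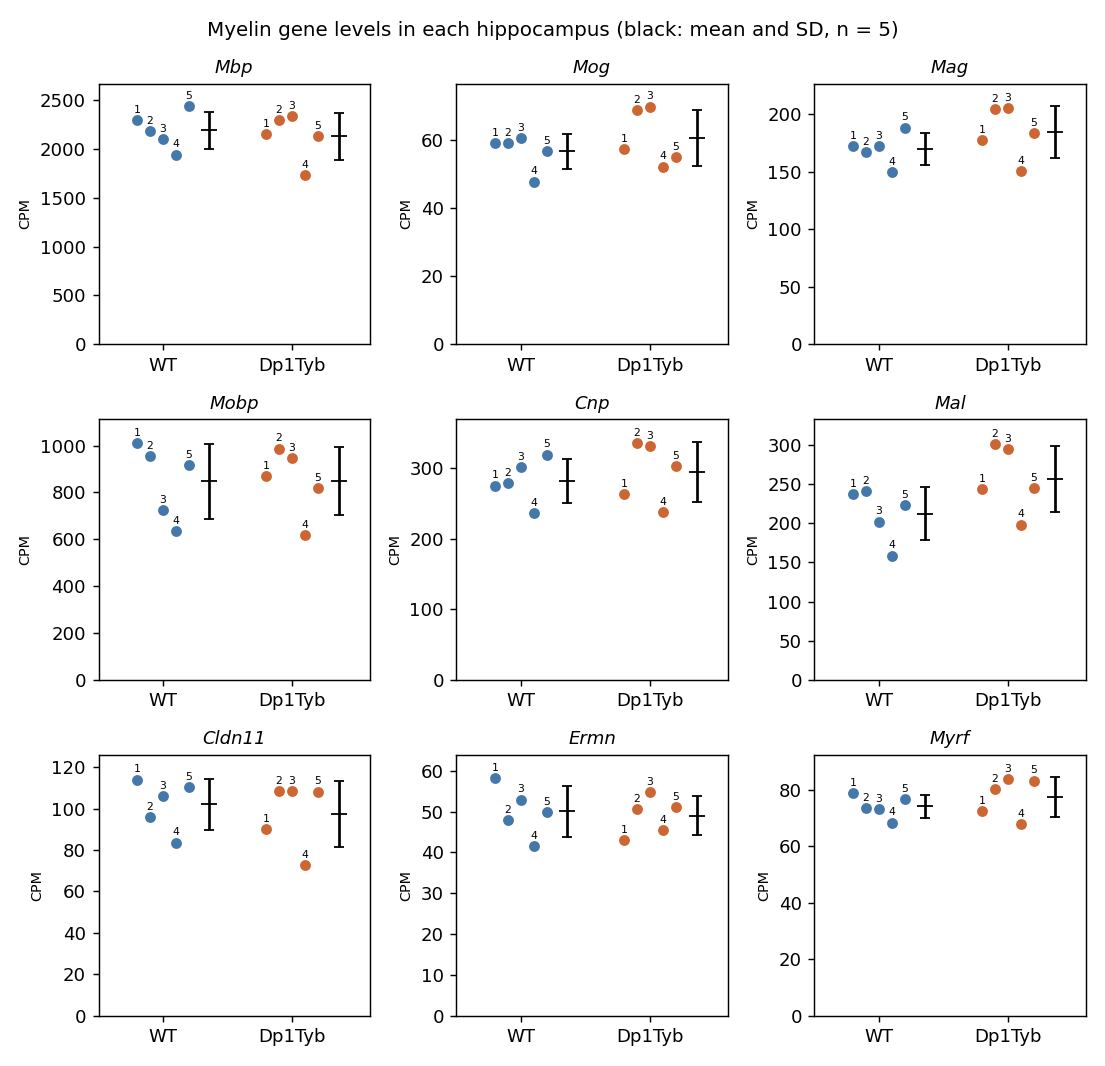
Level of each myelin gene in each hippocampus (CPM, axis from 0), with points numbered by replicate and the mean and SD of each genotype beside them (n = 5). The WT and Dp1Tyb points overlap in all 9 panels, and replicate 4 is the lowest WT point in 9 of 9 and the lowest Dp1Tyb point in 8 of 9.

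**Figure D3:**
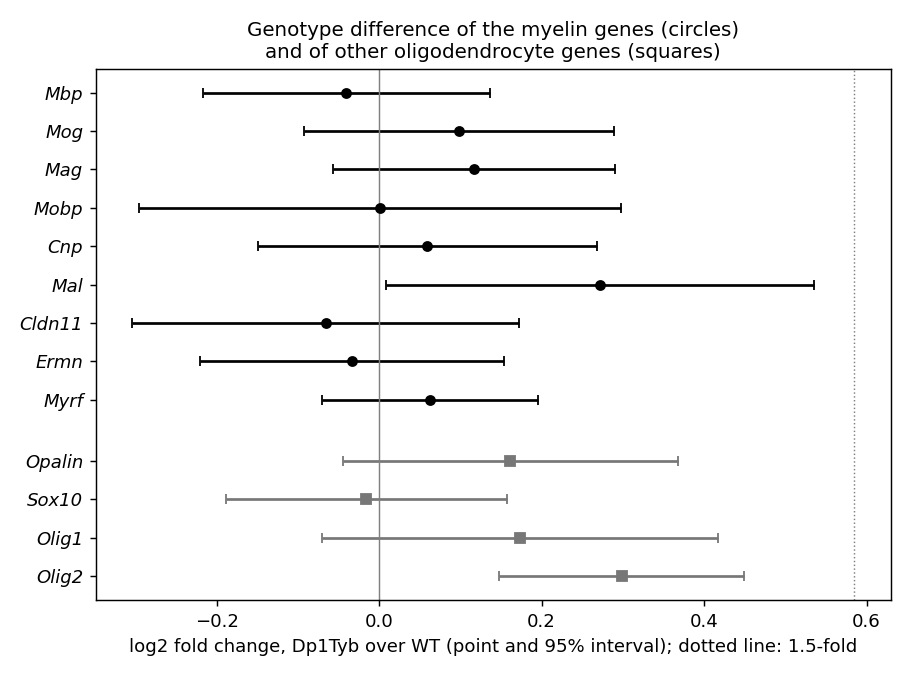
Log2 fold change (Dp1Tyb over WT) with its 95% interval for the 9 myelin genes (circles) and for Opalin, Sox10, Olig1 and Olig2 (squares), with a dotted line at 1.5-fold. The interval of Mal starts just above 0 at 0.0089, the intervals of the other 8 myelin genes cross 0, and no interval reaches the dotted line.

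Much of the variation in these genes lay between mice of the same genotype, and it was shared. Mice were compared after each gene's log2 CPM had been centred on the mean of its genotype. WT replicate 4 was the lowest WT mouse for 9 of 9 genes and Dp1Tyb replicate 4 the lowest Dp1Tyb mouse for 8 of 9. Averaged over the 9 genes, WT replicates 1 to 5 were at 0.12, 0.03, 0.0051, -0.25 and 0.10 on the log2 scale. Dp1Tyb replicates 1 to 5 were at -0.07, 0.16, 0.17, -0.28 and 0.02. The low mice were thus 1 of each genotype, and the highest were Dp1Tyb replicates 2 and 3, which held the top Dp1Tyb value for 4 and 5 of the 9 genes.

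The 36 pairs of members had Pearson correlations from 0.57 (Mbp with Ermn) to 0.96 (Mag with Cnp) across the 10 centred samples, with a median of 0.81. Each member was also set against the mean of the other 8, and the correlation was highest for Mag, with r = 0.94 and rho = 0.94, and lowest for Ermn, with r = 0.74 and rho = 0.65. Without the 2 mice farthest from the median, r was 0.82 for Mag and 0.60 for Ermn and lay between 0.47 (Mobp) and 0.82 over the 9 genes, so part of each correlation rested on those mice. The points share libraries and scaling factors, and the correlations are given as a description. The spread within genotype, as the SD of log2 CPM, was largest for Mobp at 0.28 and Mal at 0.25 and smallest for Myrf at 0.11. The median over the 9 genes was 0.168, beside 0.130 over all tested genes and 0.0737 over the 4630 genes whose mean level was at or above 49.5 CPM, the lowest mean among the members. Of those 4630 genes, 4.97% had a spread above the members' median.

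**Figure D4:**
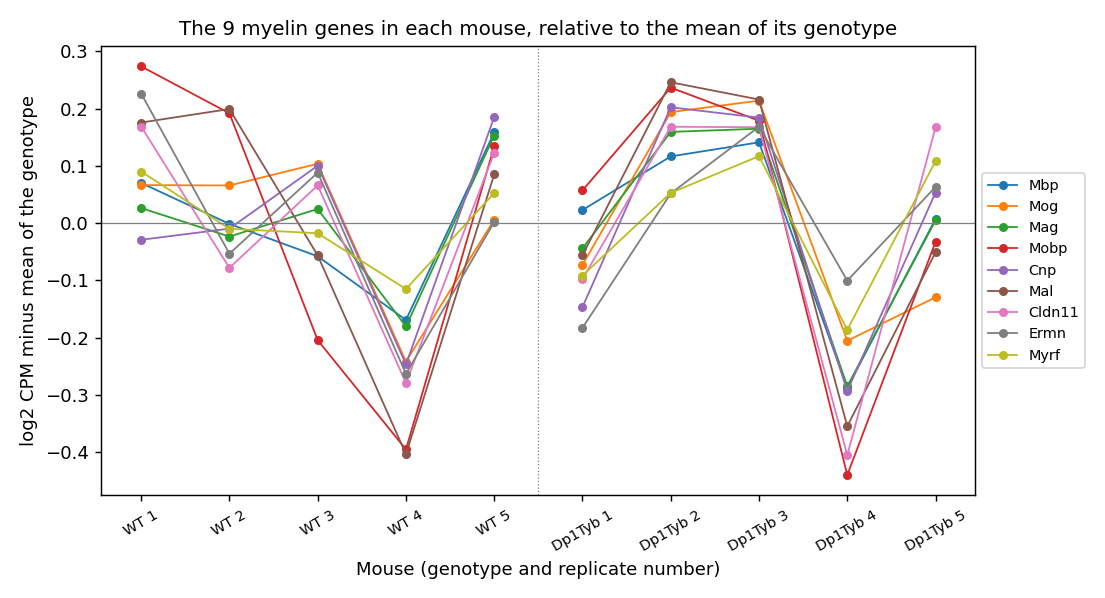
Log2 CPM of the 9 myelin genes in each mouse, relative to the mean of its genotype, with 1 line per gene broken between the genotypes. The lines dip together in replicate 4 of WT and of Dp1Tyb, where the average over the 9 genes is -0.25 and -0.28, and run highest in Dp1Tyb replicates 2 and 3.

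Within a mouse, the ratio of 2 members does not depend on depth or scaling. Of the 36 ratios, 3 (8.33%) did not overlap between the genotypes, where 3.35% of all pairs of tested genes did not. The 36 share members, so they are not independent. Pairs over all genes were not matched to the correlations of the member pairs, whose median was 0.81, so the shares are not of like pairs. All 3 had Mbp or Mobp on one side and Mal or Mag on the other. The ratio of Mal to Mbp in CPM was 0.104, 0.111, 0.0963, 0.0818 and 0.0914 in WT replicates 1 to 5 and 0.113, 0.131, 0.126, 0.114 and 0.115 in Dp1Tyb replicates 1 to 5. Every Dp1Tyb mouse was higher than every WT mouse, replicate 4 included, with means of 0.0967 ± 0.0111 and 0.120 ± 0.0081 (SD, n = 5). The ratio of Mag to Mbp was 0.0752 to 0.0821 in WT and 0.0825 to 0.0890 in Dp1Tyb, with means of 0.0776 ± 0.0027 and 0.0864 ± 0.0025. The ratio of Mal to Mobp was 0.235 to 0.279 in WT and 0.280 to 0.322 in Dp1Tyb, with means of 0.252 ± 0.0165 and 0.303 ± 0.0154. In the ratios of Mag to Mbp and of Mal to Mobp, the highest WT mouse, replicate 3, and the lowest Dp1Tyb mouse, replicate 1, almost touched. Against Mbp alone, 1.13% of all tested genes had a ratio that did not overlap, and Mal and Mag were among them. These 3 ratios are shown because they did not overlap, so no test was made of them.

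**Figure D5:**
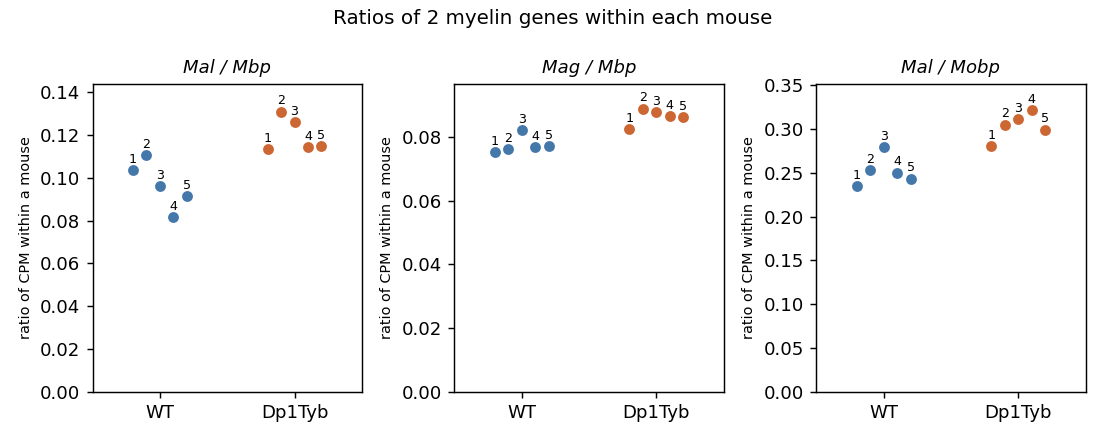
Ratio of the CPM of 2 myelin genes within each mouse, for Mal over Mbp, Mag over Mbp and Mal over Mobp, with axes from 0 and points numbered by replicate. In each panel the 5 Dp1Tyb points lie above the 5 WT points, by the narrowest gap for Mal over Mobp (0.279 and 0.280) and Mag over Mbp (0.0821 and 0.0825).

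Other genes of the oligodendrocyte lineage, taken from lists of sheath proteins, lipid synthesis, channels, transcription factors, inhibitors of maturation and earlier stages, gave no call either. Of 70 such genes tested with edgeR, 0 were called, 38 had a log2 fold change above 0 and 32 below 0, and the median was 0.01. At an unadjusted p from edgeR under 0.05 there were 6 above 0 and 4 below. Over all tested genes, 14.4% had such a p (7.97% upward). With DESeq2, 522 of the 17237 genes that entered the fit were called, and 2 of the 70 were, Olig2 and Tspan2. With limma-voom 0 of the 70 were called. Opalin, a glycoprotein of mature oligodendrocytes, had a value of 0.16 ± 0.095 on the log2 scale (SE, adjusted p = 0.462). Its levels overlapped between the genotypes.

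Among the 19 genes of other sheath proteins the log2 fold changes ran from -0.15 for Hapln2 to 0.23 for Tspan2 (adjusted p = 0.567 and 0.120). Hapln2 encodes a link protein of the nodes of Ranvier and Tspan2 a tetraspanin of the sheath. Among 10 genes of myelin lipid synthesis they ran from -0.47 for Elovl7, a fatty acid elongase (adjusted p = 0.446), to 0.13 for Ugt8a, which makes galactosylceramide (adjusted p = 0.411). Of the 6 gap junction and potassium channel genes, 0 were called, and the highest value was 0.08 for Gjc3, a connexin gene of oligodendrocytes (adjusted p = 0.671). With edgeR, none of the genes in these 3 lists was called, and with DESeq2 Tspan2 was (adjusted p = 0.0301).

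The transcription factors upstream of the myelin genes include 2 that lie in the duplicated region, Olig1 and Olig2. Olig2 was at 22.5, 19.6, 22.2, 20.9 and 24.0 CPM in WT and at 26.2, 24.9, 28.5, 25.0 and 29.9 CPM in Dp1Tyb. Every Dp1Tyb mouse was above every WT mouse, and the log2 fold change was 0.30 ± 0.070 (SE, adjusted p = 0.0618), which missed the threshold, while DESeq2 gave an adjusted p of 0.0059, which passed it. The groups overlapped for Olig1, whose log2 fold change was 0.17 ± 0.113 (SE, adjusted p = 0.505). Sox10 stood at -0.02 ± 0.080 (SE, adjusted p = 0.949). The lowest value in the list was that of Nkx2-2, a factor of the early lineage, with -0.39 ± 0.159 (SE, adjusted p = 0.289).

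The inhibitors of maturation ran from -0.16 for Notch1 to 0.16 for Hes5, a target of Notch signalling, with 0 of 9 called. The 9 markers of newly formed oligodendrocytes ran from -0.39 (Nkx2-2) to 0.26 for Tmem163, a zinc transporter, and the 9 of precursors from -0.54 for Bmp4, a secreted signal that holds back maturation, to 0.16 for Neu4, a sialidase. Neither list held a called gene, and the adjusted p of Bmp4 was 0.321, with 2.96 ± 0.660 CPM in WT and 2.07 ± 0.758 in Dp1Tyb (SD, n = 5).

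The genes whose profile over the 10 mice was most like the mean of the 9 members were named by Pearson correlation of the centred log2 CPM. Among the 10 most like, out of 17228, were Kpnb1 (r = 0.98), Plekhb1 (0.96), Evi2a (0.95), Bex4 (0.95), Gstm7 (0.95), Dctn3 (0.95), Lgi3 (0.94), Ndufa5 (0.94) and Spcs1 (0.94). Of these, Plekhb1 was on the list of sheath proteins. Kpnb1, an import receptor of the nucleus, moved little in size, with an SD of 0.03 within genotype on the log2 scale. In all, 35 genes had r over 0.9, and the median over all other tested genes was 0.01. The transcription factors were less like the members, with 0.68 for Sox10, 0.43 for Olig1 and 0.40 for Olig2, and Opalin had 0.67. Without the 2 mice farthest from the median, r was 0.39 for Sox10, 0.37 for Olig1, 0.12 for Olig2 and 0.29 for Opalin. Over the 10 genes most like the members it then lay between 0.72 (Ndufa5) and 0.94 (Kpnb1). The 10 genes were chosen for their correlation. Gstm7 and Bex4 belong to families with close copies, and reads that aligned to several places were discarded in the counting.

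Markers of other cell types were measured beside these results. All 6 genes listed for hippocampal principal neurons were measured, and their summed level was 655 to 737 CPM in WT and 702 to 721 in Dp1Tyb. Of the 5 Schwann cell markers, 3 were high enough to test, and the defining Pmp2 reached at most 0.0303 CPM in any mouse. Prx, the periaxin of Schwann cells, rose, standing at 3.63 ± 0.424 CPM in WT and 5.08 ± 0.340 in Dp1Tyb (log2 fold change 0.48 ± 0.103, adjusted p = 0.0401). This call held under 7 of 19 alternatives and was lost when any 1 mouse but WT replicate 5 was left out (adjusted p = 0.0651 to 0.103). The list's summed level was 4.26 to 5.87 CPM in WT and 5.70 to 7.22 in Dp1Tyb.

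Of 7 astrocyte markers, 5 lay above 0 and 2 below, and 2 were called higher, while 0.87% of all tested genes were called higher. Gfap, the intermediate filament of astrocytes, rose by 0.26 ± 0.047 on the log2 scale (adjusted p = 0.0167) and S100b by 0.24 ± 0.045 (adjusted p = 0.0192). Aqp4, at 0.22 ± 0.055, missed the threshold (adjusted p = 0.0721) but was called with DESeq2 and with no filter on low counts. The call of Gfap was lost without Dp1Tyb replicate 2 (adjusted p = 0.0587), and that of S100b without any 1 of WT replicates 3 and 4 and Dp1Tyb replicates 1, 2 and 3 (adjusted p = 0.0513 to 0.0658). The summed astrocyte level was 1376 to 1515 CPM in WT and 1556 to 1614 in Dp1Tyb. The choroid plexus list, 9 genes of the secretory tissue in the neighbouring ventricles, ranged in summed level from 436 to 5523 CPM in WT and from 37.0 to 3945 in Dp1Tyb, with 0 of 9 called and no marker at 0 throughout. Across mice, its centred mean had r = 0.49 and rho = 0.48 with that of the 9 myelin genes, and 0.56 without the 2 farthest mice. The choroid plexus level was among the lowest in Dp1Tyb replicate 4, the mouse low in myelin genes, but was 4272 CPM in WT replicate 4, which was also low in them. The part of these cell types in the myelin values was not tested.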

How the data were processed

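RNA from the hippocampus of 5 WT and 5 Dp1Tyb mice was sequenced from stranded poly(A) libraries, 1 per mouse. The authors trimmed adapters with Trim Galore, aligned reads to GRCm38 with TopHat2 (2.0.12), discarded multialigning reads and counted reads per gene with HTSeq. The strand setting and annotation release of the counting are not given in the sources used here. The deposited counts are whole, unnormalized numbers of reads per Ensembl gene, and these were the values analysed. A second deposited table, of counts divided by size factors, and another, of the authors' own DESeq2 comparison (means, log2 fold changes, standard errors, statistics and p-values), were not used.

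Symbols, positions and exon lengths came from GENCODE M21, which matched 42548 of the 43629 genes. The other 1081 held 0.103% of counts. CPM used TMM library sizes, log2 CPM a prior count of 2, and RPKM was CPM per kilobase of joined exons. Genes passing filterByExpr (17237) were tested with edgeR 4.0.16 (quasi-likelihood F-test, TMM, no covariate) in R 4.3.3, and p-values were adjusted over all tested genes by the method of Benjamini and Hochberg at 0.05. The script was tested on simulated data. limma 3.58.1 and DESeq2 1.42.0 served as alternatives. The members and lists were chosen with earlier results of these data known. Named genes were all 9 members, Opalin, Sox10, Olig1, Olig2 and Gfap, every called list gene, the highest and lowest log2 fold change in each list, and the 10 genes most like the members' mean, and some genes under this rule are not reported here. Each library comes from a separate mouse. The labels give no batch.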

Additional observations from a re-analysis of the deposited data

Results flagged for a closer look

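In 30 groups of 5 mice, the mouse farthest from the rest was set against the range of its group, and 2 groups held a mouse that stood apart. Chance alone flags about 1 in 20 groups, or 1.5 of these 30. Mog, the glycoprotein of the outer myelin surface, was at 47.8 CPM in WT replicate 4, while the other 4 WT mice were at 56.8 to 60.8 CPM. The same mouse was the lowest WT mouse for all 9 myelin genes, though for the other 8 it did not stand apart by this measure. Olig1, a transcription factor of the lineage in the duplicated region, was at 117 CPM in WT replicate 5 and at 79.5 to 84.6 CPM in the other 4 WT mice. Without WT replicate 4 the log2 fold change of Mog (Dp1Tyb minus WT) was 0.041 instead of 0.098, and without WT replicate 5 that of Olig1 was 0.29 instead of 0.17, and neither was called with edgeR in either fit.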

How the results depend on the processing

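The comparison was repeated under 19 alternatives, 1 of which, with the mean of 5 mature oligodendrocyte markers as a covariate, was chosen after seeing the data. In all 19, 0 of the 9 myelin genes were called, and of their 171 values 155 kept their sign and 16 did not, those running from -0.11 to 0.029. Their median log2 fold change lay between -0.06 and 0.10. Mobp was below 0 with RLE factors (-0.0026), library size only (-0.016), a filter at a mean of 1 CPM (-0.0015), DESeq2 (-0.0025) and the covariate (-0.11), under which Cnp was also below 0 (-0.058) and Cdh5 above it (0.031). Leaving out each mouse in turn gave -0.080 to 0.023 for Mbp, -0.087 to 0.094 for Mobp, -0.13 to 0.021 for Cldn11, -0.096 to 0.029 for Ermn, -0.055 to 0.041 for Sox10, -0.011 to 0.080 for P2ry12, -0.26 to 0.041 for Alas2, -0.087 to 0.072 for Cdh5, -0.24 to 0.10 for Foxj1, -0.092 to 0.48 for Egr2, 0.041 to 0.15 for Mog, 0.095 to 0.29 for Olig1 and 0.18 to 0.35 for Mal. The members' median ran from 0.0021 to 0.10 and their mean SD from 0.156 to 0.196, beside 0.187 with all mice. Genes called over the whole table numbered 191 (150 higher, 41 lower), 522 with DESeq2 (352 and 170), and 105 to 218 with 1 mouse left out, falling to 105 without WT replicate 4 or Dp1Tyb replicate 2, to 111 without Dp1Tyb replicate 3 and to 127 without WT replicate 5. With the replicate number as a block, 315 genes were called (204 and 111), 0 of them members, and the lowest member adjusted p was 0.055 (Mal). The labels do not say whether the numbers pair the mice. Same-numbered mice had correlations of deviations of 0.22, -0.03, 0.21, -0.07 and 0.28. Those of differently numbered mice ran from -0.45 to 0.47, and these values do not settle the question. Of the other genes whose values were followed through the alternatives, 5 gained a call. Olig2 gained it under DESeq2 (adjusted p = 0.0059) and the block (0.0187), and Tspan2 under the same (0.0301 and 0.0298). Zic1 gained it under the same (0.0164 and 0.0187) and without Dp1Tyb replicate 3 (0.0474). C1ql2 gained it with no filter (0.0354), the block (0.0199) and without WT replicate 1 (0.0275), and Tmem212 under DESeq2 (0.0255). Outside these genes, Aqp4 of the astrocyte list was called with no filter and with DESeq2, and Ccdc153 of the ependymal list with DESeq2. Gfap stayed called in 18 of 19, losing the call without Dp1Tyb replicate 2 (0.0587), S100b in 13 and Prx in 7. The causes of these changes were not tested. With 5 mice per group, differences smaller than the printed intervals allow may have gone undetected.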

Other observations

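With edgeR and all mice, the cell type lists described in these paragraphs, other than those of astrocytes and Schwann cells, gave 0 called genes. With DESeq2, which called 522 genes in all, Tmem212 and Ccdc153 of the ependymal list and Zic1 of the thalamus list were called. With limma-voom none of these lists had a call. The 5 microglia markers lay between -0.22 for Tmem119 and 0.03 for P2ry12 on the log2 scale, with 4 of 5 below 0, and across mice their centred mean had r = -0.55 with that of the 9 myelin genes (rho = -0.61, r = -0.48 without the 2 farthest mice). The 4 endothelial markers lay between -0.20 (Cldn5) and -0.02 (Cdh5), and the 5 blood genes between -0.58 (Hba-a2) and -0.14 (Alas2), all below 0. Of the choroid plexus genes, 9 of 9 were below 0, from -1.21 (F5) to -0.40 (Clic6), with adjusted p-values of 0.509 and above. These values depended on single mice and on the tool: F5 ran from -1.81 without Dp1Tyb replicate 5 to -0.88 without Dp1Tyb replicate 1, Clic6 from -0.99 to -0.073 without the same mice, and limma-voom gave -2.49 and -2.13.

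Neuronal genes lay between -0.05 (Rbfox3) and 0.13 (Nefl). The genes of hippocampal principal neurons ran from -0.49 for C1ql2, which marks granule cells of the dentate gyrus (adjusted p = 0.0906), to 0.43 for Pcp4 (adjusted p = 0.365). C1ql2 was called in 3 of the 19 alternatives, among them the fit without WT replicate 1 (0.0275), and its adjusted p reached 0.205 in others. The thalamus list ran from -0.54 (Zic1, adjusted p = 0.129) to 0.12 (Prkcd). Zic1 was called in 3 of the 19 alternatives, among them the fit without Dp1Tyb replicate 3 (0.0474), and its adjusted p reached 0.273 in others. The centred mean of the thalamus list had r = 0.32 with that of the myelin genes (rho = 0.22, r = 0.19 without the 2 farthest mice). The ependymal list ran from -0.11 (Foxj1) to 0.76 (Tmem212, adjusted p = 0.0882). Among the astrocyte markers the lowest was Gja1 at -0.08, and among the 3 Schwann cell markers tested it was Egr2 at 0.27 (adjusted p = 0.734).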
